A study of Mus musculus with 12 samples.

Results

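Cachd1, Stk32a, Zcchc18, Cisd3 and Emc7 are 5 of the 24254 genes in a table of FPKM values (a level per transcript length, scaled to each library's mapped fragments) from mouse oocytes. They were chosen because their libraries from oocytes given wild type MARF1 lay below those from oocytes given a mutated MARF1, so their difference between these groups is described here and not tested. The oocytes were fully grown, at the germinal vesicle (GV) stage before meiosis resumes, from C57BL/6 mice of 3 weeks primed 46 h earlier with 5 IU of PMSG, a gonadotropin. All 12 libraries, of 80 pooled oocytes each, carry the Marf1 gene trap: 4 had the trap alone (GT), 4 had received an injected mRNA that encodes wild type MARF1 (GTWT), and 4 an mRNA that encodes a MARF1 with a mutated aspartate, D272 (GTD272). After injection came 48 h of culture in milrinone, a drug that prevents meiotic resumption. For GT the labels name no control injection, do not say whether GT oocytes were cultured, and do not tie the libraries of a group to separate animals, so p-values measure the spread between libraries, which may be technical. Effects of injection and culture cannot be told apart from those of a supplied protein in comparisons with GT. For the 5 genes, tests against GT also use the libraries on which they were chosen, so these are not independent of the choice.

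MARF1 is a ribonuclease that mouse oocytes need to leave the GV stage. It carries a NYN nuclease domain, which holds the mutated aspartate, and LOTUS domains, which bind RNA. Fully grown oocytes make little new RNA and live on stored maternal transcripts, so the control of RNA stability sets much of what they hold. A known target of MARF1 is Ppp2cb, a catalytic subunit gene of protein phosphatase 2A.

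Relative depth, read from the steps between low FPKM values, was 55.4% to 100% of the deepest library and overlapped between the groups. The 8 oocyte markers summed to 7413 to 7586 FPKM in GT, 7747 to 8311 in GTD272 and 7764 to 8239 in GTWT. The 12 granulosa markers summed to 142 to 150.2, 127 to 136 and 119 to 129 FPKM, with Nr5a2 alone at 100.3 to 129, and the other 11 summed to 19.8 to 24.7, 17.4 to 23.4 and 18.6 to 25.4. Of the 12, 4 reached a mean of 1 FPKM in each group, among them Kitl at 10.3 to 15.6 and Cyp19a1 at 3.36 to 6.88. No theca marker of 5 and no blood or immune marker of 5 reached a group mean of 1 FPKM, and Insl3, Lhcgr, Hba-a1, Hbb-bs and Ptprc were listed at 0 in every library. Marf1 itself was at 1.27 to 1.83 FPKM in GT, 7.99 to 9.73 in GTD272 and 13.5 to 24.1 in GTWT, so the injected groups differed in the Marf1 level as well as in the protein encoded. The part of that difference in the results on the 5 genes was not tested.

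The 5 genes lie on 5 chromosomes and are unrelated in sequence class, so the transcript ends of 4 of them are shown to let these be compared. In the GENCODE M21 annotation of GRCm38, the assembly of mm10, the last poly(A) signal (AATAAA, capitals) and the 24 bases before it read as follows on the transcript strand, at chr4:101004496-101004525 for Cachd1, chrX:136998426-136998455 for Zcchc18, chr11:97688572-97688601 for Cisd3 and chr2:112472119-112472148 for Emc7, all on the plus strand.
Cachd1: gtgtataaagttgcagtctagtgaAATAAA
Zcchc18: taaagttgaaaggacatgtttaaaAATAAA
Cisd3: ggtccagcatccggtaaagctgtcAATAAA
Emc7: tcatttaaaatattgtgaatataaAATAAA
Each of these 4 ends is that of 1 transcript model, the one with the longest coding region of its gene. All 4 carry AATAAA, 14 to 20 bases before the end of that model. Ends were printed only where AATAAA or ATTAAA lay near the end, so a signal in each follows from the choice. Stk32a was left out for its chromosome, 18, and was not searched, so its absence here says nothing of its signal. The annotated Cachd1 gene runs on to 101029220, beyond the end shown. Which ends the oocyte uses was not measured: the authors' locus for Emc7 stops at 112467436, before the signal shown, and that for Cachd1 at 101003748, also before it.

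Promoters of 4 of the 5 genes were found in RefSeq's table for GRCm38.p6, and are shown so that the start regions of genes chosen for 1 shared difference, GTWT below GTD272, can be compared. RefSeq lists 2 start sites each for Zcchc18 and Cisd3, and 1 is shown. It is the first listed for Zcchc18 and the one nearest the start of the authors' locus for Cisd3. Each line runs from 250 bases before to 50 bases after the start site, on the plus strand, at chr4:100776429-100776728 for Cachd1, chrX:136992897-136993196 for Zcchc18, chr11:97685683-97685982 for Cisd3 and chr2:112454775-112455074 for Emc7. Capitals mark the GC box GGGCGG, the CAAT box motif CCAAT, the TATA box motif TATAAA and the E-box CANNTG, which the oocyte factor FIGLA binds, each searched on both strands.
Cachd1: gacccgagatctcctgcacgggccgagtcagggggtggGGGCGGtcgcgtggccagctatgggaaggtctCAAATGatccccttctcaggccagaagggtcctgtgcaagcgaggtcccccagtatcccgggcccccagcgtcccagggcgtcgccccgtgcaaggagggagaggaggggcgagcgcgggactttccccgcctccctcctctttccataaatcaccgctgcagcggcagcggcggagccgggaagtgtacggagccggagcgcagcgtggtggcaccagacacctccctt
Zcchc18: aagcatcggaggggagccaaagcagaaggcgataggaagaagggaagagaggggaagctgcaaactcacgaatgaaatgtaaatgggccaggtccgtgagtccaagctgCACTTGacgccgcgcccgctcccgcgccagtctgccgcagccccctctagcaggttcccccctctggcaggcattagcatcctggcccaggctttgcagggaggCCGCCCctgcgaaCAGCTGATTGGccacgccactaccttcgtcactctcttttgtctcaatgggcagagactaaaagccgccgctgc
Cisd3: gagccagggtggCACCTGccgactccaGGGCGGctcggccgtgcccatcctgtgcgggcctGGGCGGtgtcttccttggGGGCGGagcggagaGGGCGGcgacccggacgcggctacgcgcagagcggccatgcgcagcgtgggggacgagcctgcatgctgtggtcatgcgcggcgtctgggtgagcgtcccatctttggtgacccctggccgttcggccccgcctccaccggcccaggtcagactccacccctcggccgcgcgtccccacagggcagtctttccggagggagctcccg
Emc7: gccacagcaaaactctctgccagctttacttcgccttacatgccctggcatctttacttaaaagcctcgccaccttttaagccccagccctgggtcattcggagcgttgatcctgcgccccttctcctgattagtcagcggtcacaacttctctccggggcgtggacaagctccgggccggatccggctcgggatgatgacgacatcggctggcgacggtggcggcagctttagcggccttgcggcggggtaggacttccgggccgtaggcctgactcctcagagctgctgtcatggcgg
The Cisd3 promoter holds 4 copies of GGGCGG, those of Cachd1 and Zcchc18 hold 1 each, and that of Emc7 holds none of the motifs searched. GGGCGG was in 35.9% of 27025 promoters of this length, CCAAT in 37.9%, TATAAA in 14.2% and CANNTG in 72.2%. The CCAAT of Zcchc18 lies on the minus strand and adjoins 1 of its 2 E-boxes. TATAAA was in none of the 4, and an E-box was in 3 of them. CG dinucleotides numbered 25, 17, 33 and 23 in Cachd1, Zcchc18, Cisd3 and Emc7, against a median of 7 over all promoters (quartiles 3 and 21). The 27025 promoters were not limited to genes expressed in these oocytes, so the 4 were not compared with expressed genes alone.

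Cachd1 (chromosome 4, 100776675 to 101029220, plus strand, 27 exons) encodes a transmembrane protein related to the alpha2delta subunits of calcium channels, which acts in zebrafish as a Wnt receptor partner of Frizzled and LRP proteins. Its FPKM was 11.2, 8.77, 8.60 and 9.42 in GT, 8.84, 7.74, 8.64 and 7.29 in GTD272, and 2.58, 2.94, 3.05 and 2.71 in GTWT. The GTWT libraries lay close together and far below the other 8, whose groups overlapped. The mean of 2.82 ± 0.211 in GTWT (SD, n = 4) was 2.88-fold below the 8.13 ± 0.736 of GTD272 and 3.37-fold below the 9.49 ± 1.16 of GT. Cachd1 fell in GTWT against GT, by a difference of -1.45 on the log2(FPKM + 1) scale (SE 0.11, limma adjusted p = 9.49e-06). In GTD272 against GT the log2 difference was -0.20 (95% interval -0.43 to 0.03) and did not pass (limma adjusted p = 0.343). In pooled oocytes, less of a transcript in every oocyte and fewer oocytes that hold it cannot be told apart.

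Stk32a (chromosome 18, 43207583 to 43318682, plus strand, 13 exons) encodes a serine/threonine kinase of the AGC class, also called YANK1, with little described function. Its FPKM was 7.18, 7.95, 7.44 and 5.40 in GT, 7.60, 6.15, 7.65 and 6.72 in GTD272, and 1.43, 2.66, 1.40 and 2.38 in GTWT. The highest GTWT library, at 2.66, stood below the lowest of the other 8, at 5.40. The mean was 1.97 ± 0.648 in GTWT, 7.03 ± 0.728 in GTD272 and 6.99 ± 1.11 in GT (SD, n = 4), which is 3.58-fold and 3.56-fold lower in GTWT. Of the 5 genes it was the furthest below GTD272, at rank 8 of 11687 genes from the most lowered. It fell against GT, by a log2 difference of -1.44 (SE 0.16, limma adjusted p = 0.000133), and the pseudocount understates this, since with 0.01 in place of 1 the value was -1.87. In GTD272 against GT the log2 difference was 0.01 (95% interval -0.33 to 0.36, limma adjusted p = 0.975).

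Zcchc18 (chromosome X, 136993155 to 136998472, plus strand, 2 exons) encodes a zinc knuckle protein, a paralog of Zcchc12, which acts in mouse as a coactivator in BMP signaling. It was the most abundant of the 5 in GT, with an FPKM of 46.7, 46.3, 42.8 and 49.4, against 47.0, 47.7, 42.0 and 45.8 in GTD272 and 23.8, 17.4, 24.7 and 20.1 in GTWT. GT and GTD272 covered nearly the same range, and the GTWT libraries were near the middle between that range and 0. The mean was 21.5 ± 3.41 in GTWT, 45.6 ± 2.53 in GTD272 and 46.3 ± 2.72 in GT (SD, n = 4), 2.12-fold and 2.15-fold lower in GTWT. Zcchc18 fell against GT, by a log2 difference of -1.08 (SE 0.10, limma adjusted p = 2.88e-05). In GTD272 against GT the log2 difference was -0.02 (95% interval -0.23 to 0.19, limma adjusted p = 0.936). The authors' locus for Zcchc18 also holds Slc25a53, a mitochondrial carrier gene that spans it on the minus strand, and whether the authors' counting used strand is not given. Slc25a53 was at 0.896 ± 0.279 FPKM in GT, 0.669 ± 0.240 in GTD272 and 0.640 ± 0.505 in GTWT, too low to enter the test.

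Emc7 (chromosome 2, 112454997 to 112472162, plus strand, 5 exons) encodes a subunit of the endoplasmic reticulum membrane protein complex (EMC), which inserts membrane proteins. Its FPKM was 24.05, 30.02, 23.9 and 18.7 in GT, 34.6, 27.5, 23.2 and 36.2 in GTD272, and 14.3, 14.6, 12.1 and 14.5 in GTWT. The GTWT libraries were again below all others, while GTD272 reached above GT with an overlap. The mean was 13.9 ± 1.17 in GTWT, 30.4 ± 6.10 in GTD272 and 24.2 ± 4.64 in GT (SD, n = 4), 2.19-fold and 1.74-fold lower in GTWT. Emc7 fell against GT, by a log2 difference of -0.75 (SE 0.15, limma adjusted p = 0.00457). In GTD272 against GT the log2 difference was 0.31 (95% interval -0.004 to 0.63) and did not pass (limma adjusted p = 0.267).

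Cisd3 (chromosome 11, 97685826 to 97688621, plus strand, 3 exons) encodes a NEET protein of the mitochondrial matrix that carries iron-sulfur clusters. Its FPKM was 2.002, 3.87, 2.87 and 3.22 in GT, 3.75, 9.45, 6.04 and 3.25 in GTD272, and 1.36, 2.63, 1.58 and 1.68 in GTWT. GTWT overlapped GT, and its highest library, at 2.63, came near the lowest of GTD272, at 3.25. The mean was 1.81 ± 0.559 in GTWT, 5.62 ± 2.82 in GTD272 and 2.99 ± 0.780 in GT (SD, n = 4), and the wide spread of GTD272 came from replicates 2 and 3. The log2 difference from GT was -0.50 in GTWT (95% interval -1.06 to 0.05, limma adjusted p = 0.206) and 0.66 in GTD272 (95% interval 0.10 to 1.21, limma adjusted p = 0.182). Without GTD272 replicate 2 the latter was 0.41. Neither passed, so Cisd3 goes against the description of the 5 genes as lowered by wild type MARF1: its distance between GTWT and GTD272 had a part on each side of GT.

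**Figure D1:**
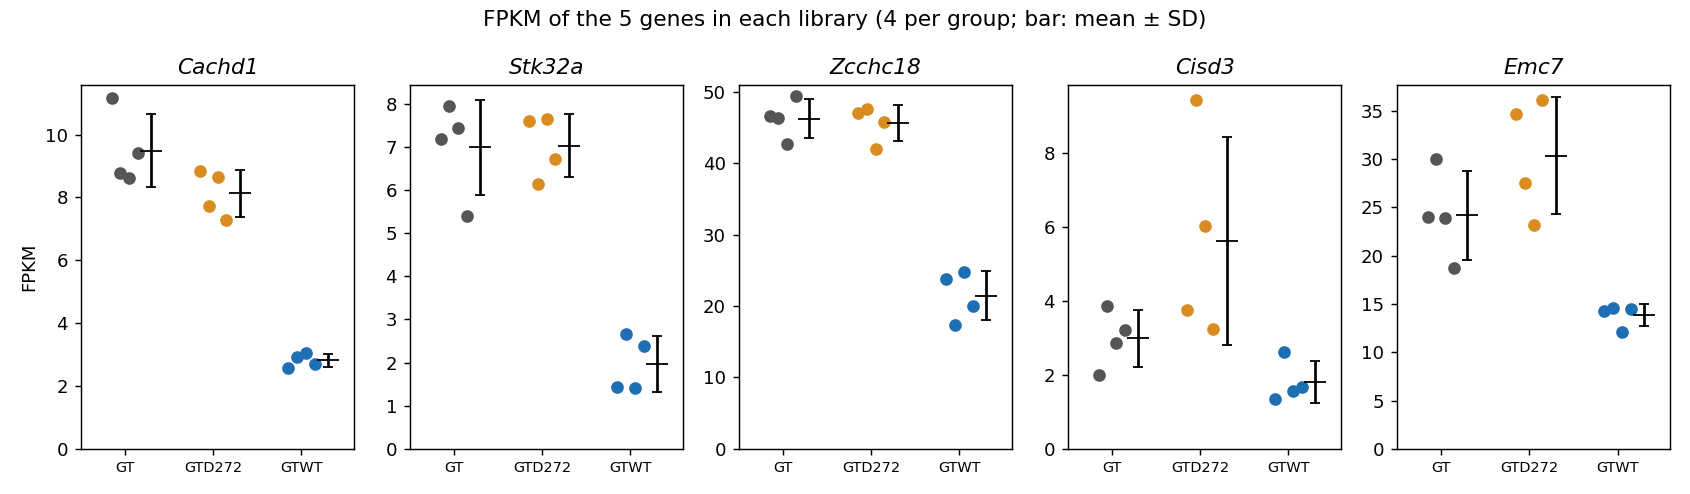
FPKM (vertical axis, from 0) of the 5 genes in each of the 12 libraries by group (points), with the mean ± SD beside them (n = 4). The GTWT points of Cachd1, Stk32a, Zcchc18 and Emc7 lie below all other points, whereas those of Cisd3 overlap GT.

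Against GT, 4 of the 5 genes fell in GTWT by the whole-table test (limma, adjusted p under 0.05), where 10.5% of the 11687 genes tested fell. These GTWT libraries are those on which the genes were chosen, so the count is no independent support for a fall. All GTWT libraries of the 5 genes were below all GTD272 libraries, as the choice required and as 5.93% of genes tested did. In the same 4 genes each GTWT library was below all 8 others, which held for 3.8% of genes tested. In GTD272 against GT 0 of the 5 genes were called by limma, where 2.95% of genes tested were called in either direction. Also 0 had a q-value under 0.05 in the authors' deposited table, where 3.04% of genes had one. Before adjustment the limma p was 0.0236 for Cisd3, 0.0523 for Emc7 and 0.0879 for Cachd1. The authors' Cuffdiff p was 0.0472, 0.0202 and 0.0494 in the same order, with log2 fold changes of 0.92, 0.34 and -0.22. For Stk32a and Zcchc18 both tests gave an unadjusted p of 0.835 or more. The share of all genes under 0.05 before adjustment is not given. The genes were chosen with high GTD272 values, and the intervals include falls: the lower limits were -0.43 for Cachd1, -0.33 for Stk32a and -0.23 for Zcchc18. The median log2 difference of the 5 was -1.08 in GTWT against GT (-0.01 over all genes tested) and 0.01 in GTD272 against GT (-0.006 over all genes). Both comparisons share the GT libraries. The share of falls among calls in GTWT against GT was 63.0% as deposited, 49.8% after quantile normalization and 50.3% after upper quartile rescaling, and the 4 genes stayed called as lower under both.

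**Figure D2:**
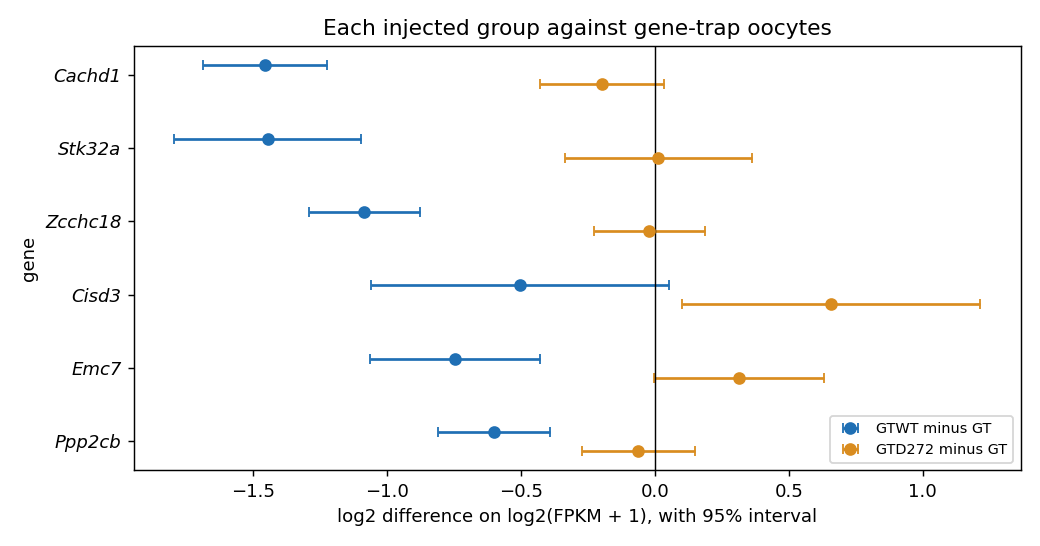
Difference of each injected group from GT on the log2(FPKM + 1) scale (horizontal axis) with its 95% interval, for the 5 genes and Ppp2cb (vertical axis), 4 libraries per group. For Cachd1, Stk32a, Zcchc18 and Emc7 the GTWT interval lies wholly below 0 (upper limit -0.43 for Emc7) and the GTD272 interval includes 0.

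The authors' deposited table, made with Cuffdiff from the same libraries, gives GTWT against GT log2 fold changes of -1.73 for Cachd1, -1.81 for Stk32a, -1.09 for Zcchc18 and -0.79 for Emc7, each at a q-value of 0.000573, where 5.08% of the table's genes had a q-value under 0.05 and a fall. For Cisd3 the authors' deposited table gives -0.71 with a q-value of 1. For GTD272 against GT the authors' deposited table gives q-values from 0.135 for Emc7 to 0.970 for Stk32a. Ppp2cb was set beside the 5 genes as a known target of MARF1 and a check of the labels, not picked by the rule that chose the 5. It was at 97.0, 108, 109 and 104 FPKM in GT, 99.1, 99.9, 108 and 94.8 in GTD272, and 72.0, 53.3, 79.2 and 73.3 in GTWT, a fall of 1.51-fold in GTWT. The 4 genes that fell did so by more than Ppp2cb in these values, from 1.74-fold for Emc7 to 3.56-fold for Stk32a. They were chosen on low GTWT values and Ppp2cb was not, so the choice itself favors a larger fall in them. Whether their log2 differences differ from that of Ppp2cb was not tested.

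Within GTWT the libraries were not alike. Stk32a was at 1.43 and 1.40 FPKM in replicates 1 and 3 and at 2.66 and 2.38 in replicates 2 and 4, while Zcchc18 was at 23.8 and 24.7 in the former pair and 17.4 and 20.1 in the latter. Marf1 was at 13.5 and 13.6 in replicates 1 and 3 and at 24.1 and 19.02 in replicates 2 and 4, so the libraries with more Marf1 had more Stk32a and less Zcchc18. Cisd3 also had its higher values in replicates 2 and 4, at 2.63 and 1.68 against 1.36 and 1.58, and so did Emc7, at 14.6 and 14.5 against 14.3 and 12.1. Cachd1 did not split in this way, with 2.94 and 2.71 in replicates 2 and 4 and 2.58 and 3.05 in replicates 1 and 3. With 4 libraries no correlation is given. Over all 12 libraries, after the group means were taken away, Pearson r between Stk32a and Zcchc18 was -0.86 and the other 9 pairs of the 5 genes ran from -0.32 to 0.45, as a description of libraries that share their group and depth.

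**Figure D3:**
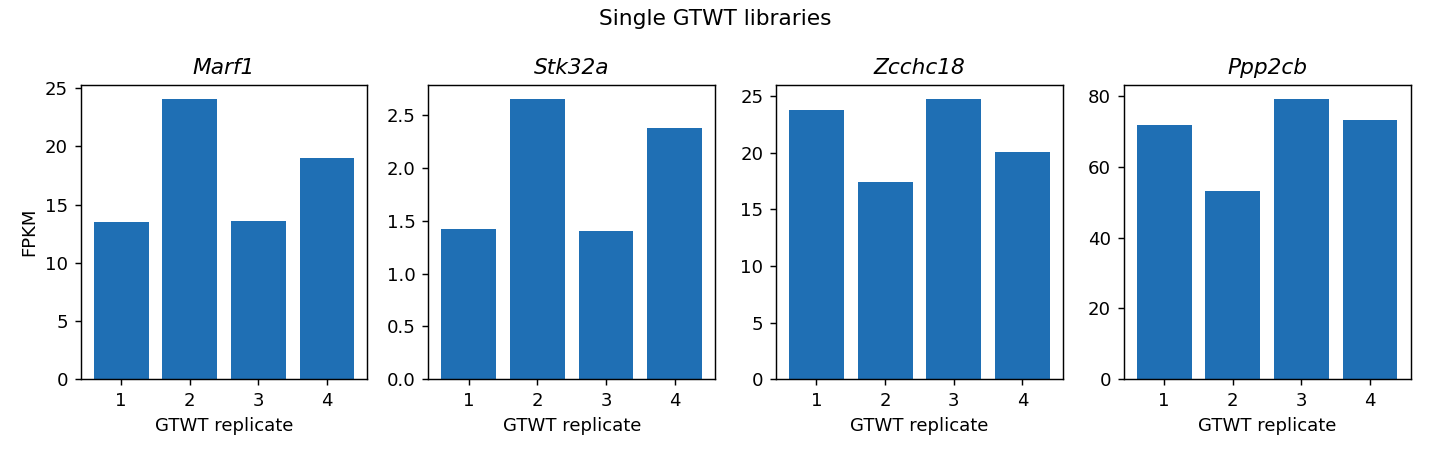
FPKM (vertical axes, from 0) of Marf1, Stk32a, Zcchc18 and Ppp2cb in each GTWT library (bars, 1 library each, no error). Replicates 2 and 4 hold the 2 highest values of Marf1 (24.1 and 19.02) and of Stk32a, and the 2 lowest of Zcchc18. Ppp2cb did not split in this way, with 53.3 and 73.3 in replicates 2 and 4 and 72.0 and 79.2 in replicates 1 and 3.

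Known relatives and partners of the 5 genes were read from 6 lists, of which 68 of 86 listed genes were tested. In GTWT against GT limma called 5 as higher and 9 as lower (20.6% called, against 16.6% of all genes tested), with a median log2 difference of -0.02. In GTD272 against GT limma called 3 as higher and 2 as lower (7.35%, against 2.95%), with a median of -0.008. That second count was not stable: it came to 2 or 3 when any 1 of the GT libraries, GTD272 replicate 1, 3 or 4, or GTWT replicate 4 was left out. The lists were chosen with earlier results of these data known, and shares over so few genes are descriptions. The counts within lists below stand against the shares over all genes tested. These were 16.6% called and 10.5% called as lower in GTWT against GT, and 2.95% called in GTD272 against GT.

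Closest to Emc7 are the other EMC subunits. Of 9 listed subunits 7 were tested, and in GTWT against GT limma called 0 as lower and 1 as higher, with a median of 0.06. Emc8, a subunit on the cytosolic side of the complex, rose from 39.4 ± 2.52 to 48.5 ± 2.07 FPKM (SD, n = 4, limma adjusted p = 0.00904). Emc3 and Emc6, which form part of the insertion site, were at 53.6 and 110 FPKM in GT and 61.2 and 101 in GTWT and did not pass. In GTD272 0 of the 7 were called. The GET pathway, the other route by which tail-anchored proteins enter this membrane, had 3 of 7 genes called as lower in GTWT, against 10.5% of all genes tested. Wrb, the membrane receptor of the pathway, fell from 21.5 ± 2.47 to 11.98 ± 4.43 FPKM, its partner Caml from 57.8 ± 0.379 to 47.8 ± 1.71, and Ubl4 from 18.4 ± 0.698 to 14.5 ± 1.57. Ubl4 no longer passed when any 1 of the GT libraries, GTD272 replicate 1 or 3, or GTWT replicate 1, 2 or 4 was left out (adjusted p = 0.0566 to 0.127), after quantile normalization (0.0615) or upper quartile rescaling (0.0746), or with no filter on low values (0.112). Wrb no longer passed with no such filter (adjusted p = 0.0883).

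Around Cachd1, 13 of 17 calcium channel and Wnt receptor genes were tested, and in GTWT 4 fell and 1 rose, with a median of -0.22. Of all genes tested 10.5% fell and 16.6% were called in either direction. Fzd5, the most abundant Frizzled receptor gene of the list, fell from 188 ± 6.91 to 118 ± 20.6 FPKM (SD, n = 4, limma adjusted p = 0.000556) and was at 173 ± 5.33 in GTD272. The coreceptor gene Lrp6 fell from 9.21 ± 0.513 to 6.33 ± 0.330 and was at 7.85 ± 0.565 in GTD272. Fzd7 fell in both injected groups, from 33.8 ± 1.75 to 23.5 ± 2.85 in GTWT and to 24.3 ± 1.66 in GTD272, and the second call was lost without GT replicate 1 (adjusted p = 0.0547) and with no filter on low values (0.0533). Fzd8 rose in GTWT from 21.1 ± 2.19 to 29.96 ± 2.16. Fzd3 fell by 0.30 on the log2 scale, and did not pass once GT replicate 1, 2 or 3, GTD272 replicate 3, or GTWT replicate 2, 3 or 4 was left out (adjusted p = 0.0511 to 0.106), after quantile normalization (0.0521), after upper quartile rescaling (0.0594) or with no filter on low values (0.0565). Cacna1h, the T-type channel gene of mouse oocytes, was at 19.9 FPKM in GT, 21.2 in GTD272 and 21.3 in GTWT and did not pass, and Cacna2d1, an alpha2delta gene, was near 1 FPKM in each group.

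Neither paralog of Stk32a was called. Stk32b was at 5.28 ± 0.755 FPKM in GT, 6.33 ± 1.48 in GTD272 and 6.21 ± 0.394 in GTWT (SD, n = 4), and Stk32c at 22.9 ± 4.66, 22.4 ± 0.703 and 25.5 ± 2.004, and neither passed in a comparison with GT (limma adjusted p = 0.364 to 0.979). Of 11 tested kinases of this list Akt2 rose in GTWT by 0.23 on the log2 scale and Lats2 fell in GTD272, from 4.86 ± 1.12 to 2.88 ± 0.262 FPKM. Akt2 did not pass when GT replicate 1, 3 or 4 or any of the GTWT libraries was left out (adjusted p = 0.0503 to 0.112), with no filter on low values (0.0573) or with only the 2 groups compared (0.0673). Lats2 did not pass when any of the GT or GTD272 libraries, or GTWT replicate 1, 2 or 4, was left out (adjusted p = 0.0531 to 0.104), with no filter (0.0951) or with only the 2 groups compared (0.0649).

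Zcchc12, the paralog of Zcchc18 on the same chromosome, was low, at 1.61 ± 0.378 FPKM in GT, 0.943 ± 0.324 in GTD272 and 0.894 ± 0.142 in GTWT (SD, n = 4), and did not pass. Of 13 tested Pnma-related and zinc knuckle genes limma called 2 as lower in GTWT and 0 in GTD272. Zcchc8, a subunit of the nuclear exosome targeting complex, fell from 49.5 ± 3.72 to 38.9 ± 3.32 FPKM, and Zcchc6, a terminal uridylyltransferase that marks RNA for decay, from 15.1 ± 1.13 to 12.2 ± 0.736. Zcchc6 did not pass when GT replicate 1 or 2 or GTWT replicate 2 or 4 was left out (adjusted p = 0.0505 to 0.0673).

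Near Cisd3 in function, 17 of 18 NEET and iron-sulfur assembly genes were tested, and 2 rose in GTWT and 3 in GTD272, with none of the 17 called as lower by limma. Glrx5, a glutaredoxin of the assembly pathway, was at 293 ± 8.87 FPKM in GT, 348 ± 19.2 in GTD272 and 334 in GTWT (SD, n = 4, the GTWT libraries running from 321 to 345) and rose in both. Isca1 rose from 165 ± 4.37 to 190 ± 4.86 in GTWT and to 183 ± 3.56 in GTD272, where it did not pass when any of the GT or GTD272 libraries or GTWT replicate 4 was left out (adjusted p = 0.0551 to 0.121) or with only the 2 groups compared (0.057). Iscu, the assembly scaffold, rose in GTD272 from 31.2 ± 4.25 to 44.8 ± 2.10, a call lost without GTD272 replicate 3 (adjusted p = 0.0516) and with no filter on low values (0.0695). The NEET paralogs Cisd1 and Cisd2 were at 113 and 20.1 FPKM in GT, 107 and 15.4 in GTD272 and 111 and 16.1 in GTWT, and neither passed.

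**Figure D4:**
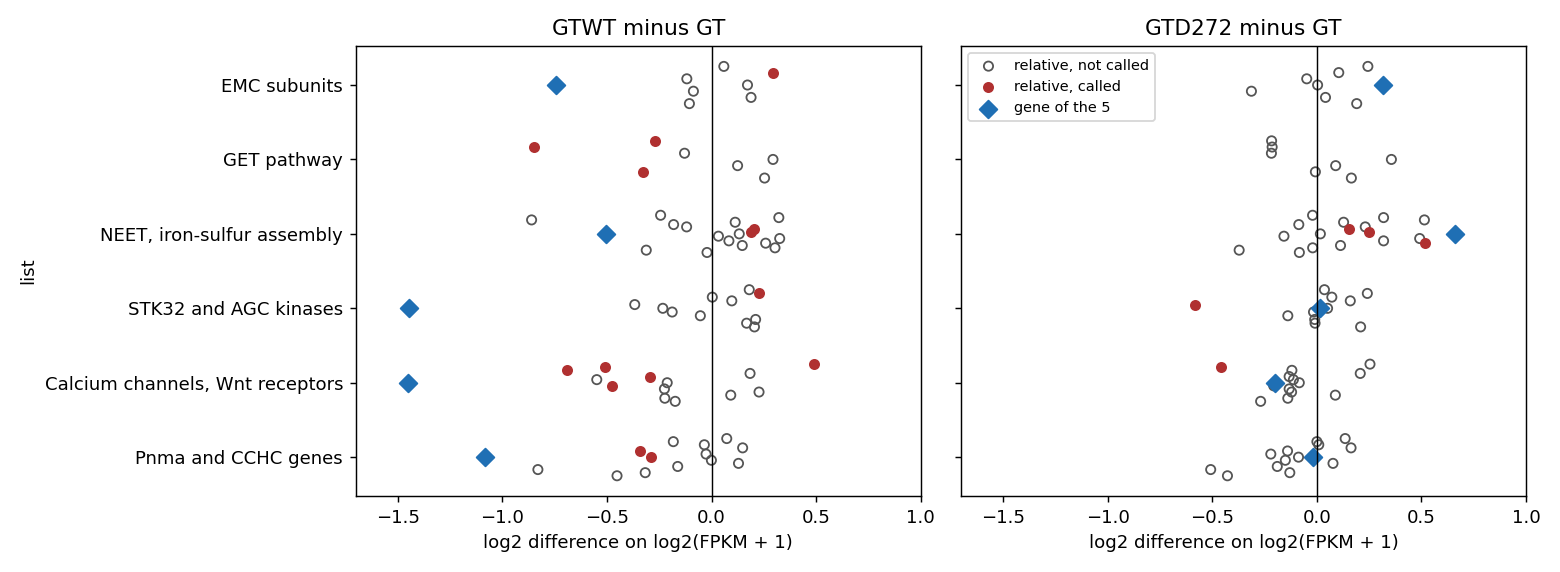
Log2 difference from GT on the log2(FPKM + 1) scale (horizontal axes) of the tested relatives (circles, filled where called by limma at an adjusted p under 0.05) by list (vertical axis), for GTWT (left) and GTD272 (right), with the gene of the 5 related to the list as a diamond (none for the GET pathway). On the left the diamonds of Stk32a (-1.44), Cachd1 (-1.45), Zcchc18 (-1.08) and Emc7 (-0.75, among EMC subunits) lie to the left of each relative in the same row, that of Cisd3 does not, and Wrb of the GET pathway is at -0.85. The 5 genes were chosen on low GTWT values and the relatives were not, so the choice favors this order.

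The genes next to the 5 on their chromosomes gave no shared direction. In GTWT against GT, Raver2, 39763 bases beyond Cachd1, rose from 26.1 ± 0.741 to 33.5 ± 3.94 FPKM (SD, n = 4, limma adjusted p = 0.0153). Katnbl1, 40757 bases before Emc7, fell from 50.7 ± 1.76 to 39.4 ± 7.89 (limma adjusted p = 0.0228). Ube2u before Cachd1, Ppp2r2b and Dpysl3 beside Stk32a, and Tmsb15b1 and Fam199x beside Zcchc18 did not pass. Dpysl3 ends 2302 bases from Stk32a and was at 17.6 ± 1.79 FPKM in GT and 16.9 ± 1.03 in GTWT. Both neighbors of Cisd3, Mllt6 at 363 bases and Pcgf2 at 202 bases, were under 1 FPKM in each group, and so was Chrm5 beyond Emc7.

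The transcripts of the 5 genes shared no extreme in the features measured. In the GENCODE M21 model with the longest coding region, Emc7 had 5826 bases with a 3' untranslated region (UTR) of 5029, Stk32a 5080 with 3528, Zcchc18 4733 with 2653 and Cachd1 5765 with 1444, above the medians of 2891 and 931.5 over the genes tested. Cisd3 had 737 bases with a 3' UTR of 174. The authors' loci stop before the annotated gene ends for Emc7 (112467436 against 112472162), Stk32a (43317481 against 43318682) and Cachd1 (101003748 against 101029220). Parts of these 3' UTRs, with the motifs counted in them, may thus lie outside what the FPKM measured. GC content ran from 43.0% in Emc7 to 52.2% in Cachd1 (median 50.1%). Runs of 3 or more G, searched because LOTUS domains bind G-rich RNA, numbered 9.96 to 13.3 per kilobase against a median of 12.03. The AU-rich pentamer ATTTA occurred 4 times in the 3' UTR of Cachd1, 7 in Stk32a, 4 in Zcchc18, 8 in Emc7 and 0 in Cisd3. Per kilobase of 3' UTR this was 2.77, 1.98, 1.51, 1.59 and 0 in the same order, against a median of 1.27 over the genes tested. TTTTAT, a core of the cytoplasmic polyadenylation element, occurred 3 times in Stk32a and Emc7, 4 in Zcchc18 and 0 in Cachd1 and Cisd3. No value over all genes is given for TTTTAT, and longer 3' UTRs have more room for it.

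The genes whose pattern over the 12 libraries was most like the mean of the 5 (after each was standardized on log2(FPKM + 1)) were Zdhhc21 (Pearson r 0.95), Frmd6 (0.95), BC003965 (0.94), Traf3ip1 (0.93) and Stk36 (0.92). Zdhhc21, a palmitoyltransferase gene, was at 4.07 ± 0.410 FPKM in GT, 4.16 ± 0.358 in GTD272 and 1.88 ± 0.343 in GTWT (SD, n = 4). Frmd6, a FERM domain gene of the Hippo pathway, was at 24.3 ± 1.59, 23.9 ± 1.10 and 11.8 ± 1.59. In each of these 5 genes every GTWT library was below the 8 others, which is what their likeness was chosen on. Taken gene by gene, the closest were Rundc1 and Sec1 for Cachd1 (r 0.96 each), Hdgfrp3 (0.96) and BC003965 (0.93) for Stk32a, Frmd6 and Prkaa2 for Zcchc18 (0.98 each), AI854703 (0.92) and Fbxw18 (0.90) for Cisd3, and Cdk2ap2 (0.90) and Parpbp (0.89) for Emc7. Prkaa2, a catalytic subunit gene of the energy sensor AMPK, was at 38.6 ± 0.595 FPKM in GT, 36.5 ± 1.71 in GTD272 and 21.7 ± 3.47 in GTWT. The genes closest to Cisd3 had their highest mean in GTD272, with Fbxw18 at 178 ± 18.2 against 160 ± 8.88 in GT and 145 ± 12.8 in GTWT.

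**Figure D5:**
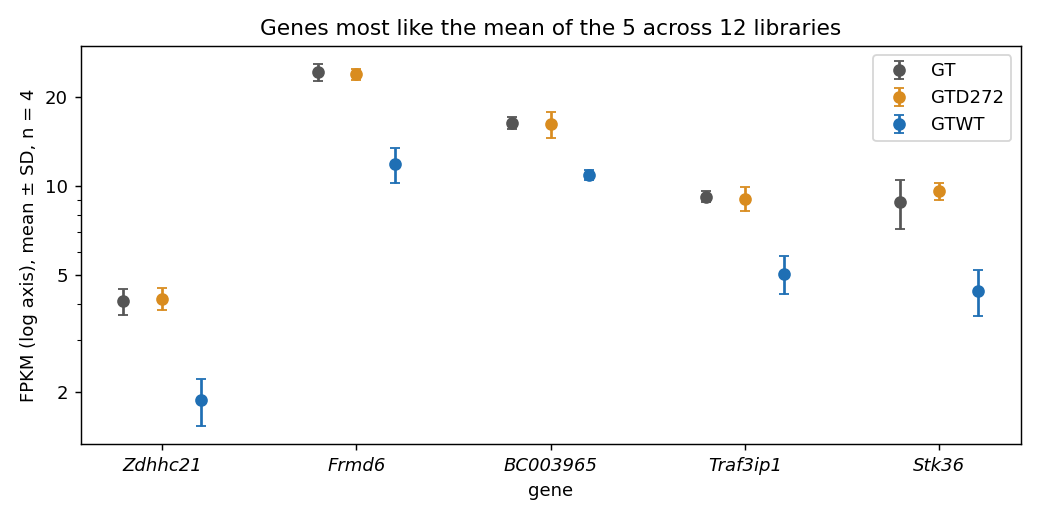
FPKM (vertical axis, log scale) as mean ± SD (n = 4) by group for the 5 genes most like the mean of the 5 chosen genes (horizontal axis). In each gene the GTWT mean lies below those of GT and GTD272, as for Zdhhc21 at 1.88 against 4.07 and 4.16.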

How the data were processed

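Trimmed reads were aligned by the authors to mm10 with TopHat2 2.0.13, and the deposited FPKM were calculated and scaled in Cufflinks 2.2.1, per the labels. The authors' deposited table also holds log2 fold changes, p-values and q-values from Cuffdiff, per the labels. The annotation is not given. Header names were 1 column to the left of their values. Once shifted back, the deposited log2 fold changes followed ratios of mean FPKM (Pearson r 0.9750 to 0.9989 across genes). The labels' protocols differ: lysed ovaries and Smart-seq2 in some fields, pooled oocytes and an RNeasy kit in the design text.

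limma 3.58.1 (R 4.3.3) was fitted once to all 12 libraries on log2(FPKM + 1) with a trend in the variance. The 11687 genes tested had 1 FPKM or more in 4 or more libraries, and calls required a Benjamini-Hochberg adjusted p under 0.05 over all of them (residual df 9, prior df 4.47). Fold changes on this scale understate low genes. In simulated data with 200 changed genes, 82% of those changed by 1 on the log2 scale were called for GTWT against GT, and 80% for GTD272 against GT. Of those changed by 0.5, 47% and 43% were called, so smaller differences were often missed. No counts were used, so depth is known only between libraries.

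The 5 genes and all lists were chosen with earlier results of these data known. Named genes are the 5, Marf1, Ppp2cb, called relatives and close paralogs, chromosome neighbors and genes of highest Pearson r. Emc3, Emc6 and Cacna1h were picked after their values were seen. Pdk1, put among AGC kinases by mistake, was dropped. The closing section gives 19 alternatives.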

Additional observations from a re-analysis of the deposited data

Results flagged for a closer look

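Of the 5 genes in 3 groups of 4 libraries, Emc7 in GTWT had a library far from the other 3: replicate 3 was at 12.1 FPKM, while the others were at 14.3 to 14.6. The gap below them took up 0.876 of the group's range. Such a gap arises by chance in about 1 in 20 groups, and 15 groups were looked at. Without that library Emc7 was still called as lower in GTWT than in GT.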

How the results depend on the processing

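In GTWT against GT, Cachd1, Stk32a, Zcchc18 and Emc7 were called as lower by limma in all 19 alternatives, and Cisd3 in none (adjusted p = 0.0871 to 0.476). The alternatives rest on the GTWT libraries on which the genes were chosen, so the stable calls are no independent support for a fall. With a pseudocount of 0.1 and 0.01 the log2 difference between GTWT and GTD272 was -1.49 and -1.52 for Cachd1 and -1.84 and -1.89 for Stk32a. Differences of GTD272 from GT near 0 changed sign: Stk32a was at -0.001538 after quantile normalization and at -0.0891 to 0.072 with 1 library left out, and Zcchc18 at -0.0572 to 0.0176. The cause was not tested.

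With no filter on low values, which tests more genes, 1293 genes were called in GTWT against GT, 145 in GTD272 against GT and 122 in GTWT against GTD272, in place of 1940, 345 and 288. With only the 2 groups compared, GTWT against GTD272 gave 138. With 1 library left out the counts ran from 1332 to 1928, from 111 to 377 and from 113 to 308. Relatives called in GTD272 against GT numbered 2 with no filter, 3 with only the 2 groups compared and 2 to 5 with 1 library left out.

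Replicate numbers did not pair the libraries: deviations of same-numbered libraries correlated at -0.222 to 0.211, and 0 of 12 libraries were closest to their own number. A fit with the replicate number as a block called 194 genes in GTD272 against GT, 187 in GTWT against GTD272 and 3 relatives in GTD272 against GT. With the block Fzd3 (adjusted p = 0.076) and Akt2 (0.0512) did not pass in GTWT against GT, nor Isca1 (0.0863) and Lats2 (0.0709) in GTD272 against GT. FPKM give relative depth only, so no counting interval or floor is given for Cisd3 and other low genes.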
